A study of Homo sapiens with 3 samples.

Results

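The genes described are those of the nuclear genome that encode subunits of the mitochondrial respiratory chain and of ATP synthase. They were taken by symbol among protein-coding genes: NDUFA, NDUFB, NDUFC, NDUFS and NDUFV followed by digits only, SDHA to SDHD, CYC1 and the UQCR forms, COX4 to COX8, and the ATP5F, ATP5M and ATP5P genes. The rule found 86 of the 56632 gene IDs in the tables, of which 19181 were protein-coding. By the complex they belong to, 36 were in complex I, 4 in complex II, 10 in complex III, 18 in complex IV and 18 in complex V. NDUFA4 carries a complex I symbol but its protein is a subunit of complex IV, and it is counted there. The readthrough genes with a hyphen in the symbol, NDUFAB1, ATP5IF1 and NDUFA4L2 lay outside the rule.

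RNA was measured in MCF10Ca1h cells, a human breast cancer cell line of the MCF10 series, grown in DMEM/F12 medium with horse serum. The GSK484 library came from cells under GSK484, a PADI4 inhibitor, for 72 h, the CON library from cells under a control compound, also for 72 h, and the NT library from cells with no treatment. PADI4 is an enzyme that converts arginine residues of proteins to citrulline. No dose or vehicle is stated in the labels, and the control compound is named differently in different places, so it is called CON. Each group was 1 library of 1 line, so every difference lies between 2 single libraries, no test between conditions was possible, and a condition cannot be told apart from the culture or library that carried it.

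The respiratory chain passes electrons from NADH (complex I) and succinate (complex II) through ubiquinone, complex III and cytochrome c to oxygen at complex IV. Complexes I, III and IV pump protons across the inner mitochondrial membrane, and ATP synthase, complex V, lets them return through a rotating ring and makes ATP. Complex II is encoded wholly in the nucleus, while the other 4 complexes also hold subunits encoded in mitochondrial DNA, so both genomes supply their parts. Transcription factors such as NRF1, the ETS factor GABP and YY1 are known to act on the promoters of many nuclear subunit genes, and some complex IV subunits have a second form made mainly in muscle, lung or testis.

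The total expected count was 77220120 in GSK484, against 92980847 in CON and 70555229 in NT, and 13010, 13026 and 12989 genes reached 1 CPM (counts scaled to library size). The breast epithelial markers, 10 genes, summed to 15147 CPM in GSK484, against 14588 in CON and 14389 in NT, and none of them was at 0. The fibroblast list of 7 genes summed to 16.2 CPM in GSK484, against 15.7 in CON and 14.2 in NT, with COL3A1, DCN and LUM at 0 in all 3 libraries. Of this list, THY1 and COL1A1 reached 1 CPM in at least 1 library. Muscle genes (5 genes, MYH7 and CKM at 0) stayed at 0.757, 1.11 and 1.07 CPM, adipocyte genes (4 genes, ADIPOQ and LEP at 0) at 2.04, 2.60 and 2.44 CPM, and the 4 endothelial genes found at 1.05, 1.71 and 1.07 CPM in the same order of libraries. Among these lists, only FABP4 (adipocyte) and CDH5 (endothelial) reached 1 CPM in at least 1 library.

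Of the 86 genes, 79 reached 1 CPM in at least 1 library and are called measured, among 13312 measured genes in all. The other 7 were the tissue forms COX4I2, COX6A2, COX7B2 and COX8C, at 0 in all 3 libraries, COX6B2 at 0.193 CPM in GSK484, against 0.197 in CON and 0.126 in NT, COX7A1 at 0.0128, 0.0439 and 0 CPM in that order, and ATP5MGL at 0, 0 and 0.0561 CPM. A count of 0 allows up to 0.0385 CPM in GSK484, against 0.0329 in CON and 0.0421 in NT. COX6A2 and COX7A1 are the heart and muscle forms, COX4I2 is best known from lung, and COX6B2, COX7B2 and COX8C from testis. Their counterparts COX4I1, COX6A1, COX6B1, COX7A2, COX7B and COX8A were all measured, so in each of these pairs the line carried the widely expressed form.

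Levels within the chain are compared in the deposited TPM, a relative transcript abundance that is per length. The measured genes had a median of 154 TPM in complex I, 105 TPM in complex II, 232 TPM in complex III, 484 TPM in complex IV and 381 TPM in complex V, each gene taken as its mean over the 3 libraries. ATP5MF, a small membrane subunit of ATP synthase, had the highest TPM of all, at 1263 in GSK484, against 1257 in CON and 1174 in NT. COX4I1, a regulatory subunit of complex IV, followed with 823 TPM in GSK484, against 807 in CON and 788 in NT. ATP5F1B, the catalytic beta subunit of the F1 head, had 791 TPM in GSK484, against 756 in CON and 735 in NT, and in CPM, which is not per length, it was at 976, 995 and 951.

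UQCRQ, a small complex III subunit, had 734 TPM in GSK484, against 807 in CON and 688 in NT. NDUFS5, an accessory subunit, was the highest gene of complex I, at 669 TPM in GSK484, against 707 in CON and 665 in NT. NDUFA5, a peripheral arm accessory subunit, was the lowest of complex I, at 26.3 TPM in GSK484, against 23.7 in CON and 28.5 in NT. The ratio of mean TPM between NDUFS5 and NDUFA5 was 26.0, against 2.99 between SDHB and SDHD in complex II, 15.4 between UQCRQ and UQCRHL in complex III, 6.46 between COX4I1 and NDUFA4 in complex IV and 16.8 between ATP5MF and ATP5F1E in complex V. Some low ends depend on how reads were divided or on the length used: UQCRHL is an intronless copy of UQCRH, and ATP5F1E, at 209 CPM in GSK484, against 237 in CON and 191 in NT, had 75.8, 77.4 and 66.7 TPM at a deposited effective length of about 3301 bases.

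**Figure D1:**
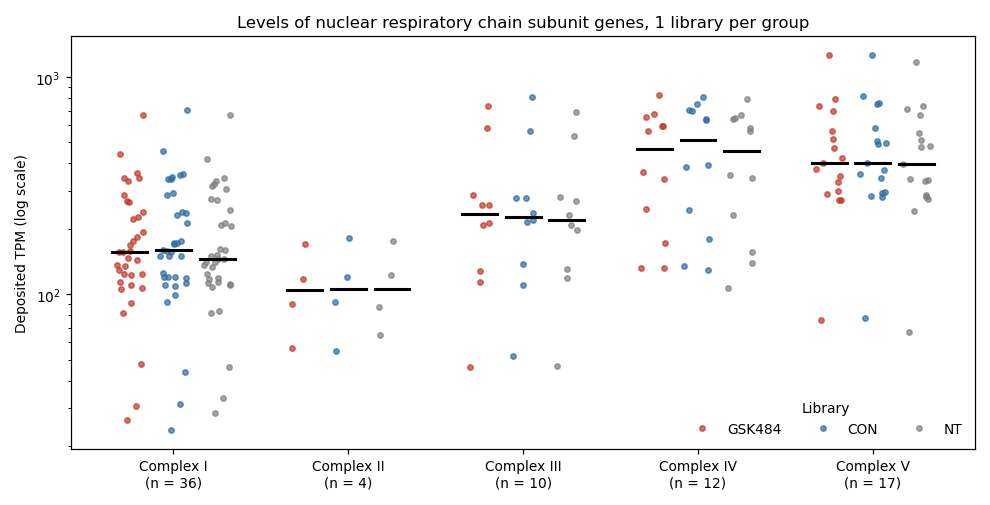
Deposited TPM (log scale) of the 79 measured genes by complex, with each point 1 gene in 1 library (GSK484 red, CON blue, NT grey) and a bar at the median. Complexes IV and V sit highest and complex II lowest in each library, and the 3 libraries lie close together within a complex.

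Summed over the 86 genes, the subunits took 1.22% of all counts in GSK484 (95% Clopper-Pearson interval 1.218 to 1.223), 1.30% in CON (1.299 to 1.303) and 1.18% in NT (1.175 to 1.180). Their summed TPM was 23652 in GSK484, against 24652 in CON and 23010 in NT. CON was thus highest in both sums, GSK484 was next and NT lowest. Complex V took the largest part, 0.442% of counts in GSK484, against 0.463% in CON and 0.427% in NT, and complex II the smallest, 0.0434%, 0.0457% and 0.0453% in the same order.

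In GSK484 against CON, inhibitor and control compound had both been present for 72 h. Nearly all subunit genes had a slightly lower CPM in GSK484: 73 of 79 were lower beyond counting error, meaning that the 95% counting interval of the log2 fold excluded 0, against a background of 27.2% of all 13312 measured genes. Only NDUFA5 was higher by that rule, where 26.8% of all genes were, and NDUFA10, NDUFV3, SDHD, UQCRC1 and ATP5PB were within counting error. The interval takes the scaling as exact, and the count of 73 depends on it. It was 73 with DESeq2 size factors (25.6% of all genes) and 58 with library totals (19.1%). In deposited TPM, 43 were lower (11.8%) and 15 higher (49.6%), and 72 were lower relative to the median of all genes (27.7%). The shift was small: the median log2 fold was -0.16 (1.12-fold lower), beside a median of -0.0047 over all measured genes, and the 79 values ran from -0.44 to 0.11. At a size of at least 1.2-fold beyond counting error, 4 genes were lower (NDUFB4, COX8A, ATP5MC3 and NDUFA4), or 5.06%, near the background of 6.27%. None was higher, where 11.3% of all genes were, and none differed 2-fold, where 0.518% did.

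Gene length moved with this shift, also outside the respiratory chain. Over all measured genes, split by length into 20 groups, the median log2 fold was -0.13 in the shortest group (median length 398 bases) and 0.10 in the longest (6990 bases). The subunit genes are short, with a median effective length (the deposited length less a term for fragment size) of 584 bases against 2018 bases for all measured genes. Among the subunits, the median log2 fold of GSK484 over CON was -0.18 for the 31 genes under 500 bases, -0.14 for the 32 from 500 to 1000 bases and -0.06 for the 16 of at least 1000 bases. Spearman's rho between fold and log2 length was 0.46 over the 79 genes, which share the same 2 libraries, and 0.11 between fold and GC content. When a smooth trend of fold on length and GC content, fitted to the 8875 protein-coding genes that reached 10 CPM, was removed, the median of the subunits was -0.02. Of the 79 genes, 26 were then lower and 23 higher beyond counting error, where 25.1% and 25.9% of all genes were.

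**Figure D2:**
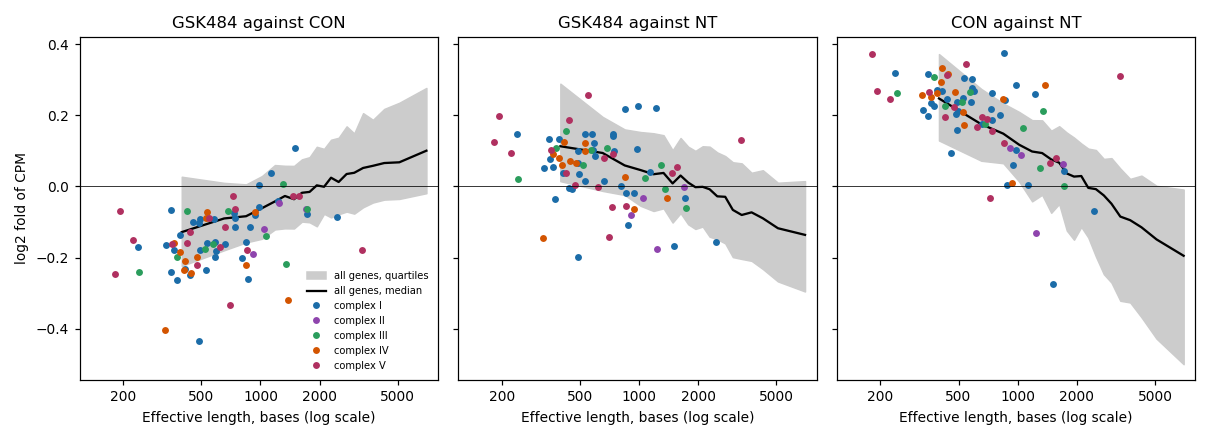
log2 fold of CPM against effective length (log scale), with the black line and grey band the median and quartiles of all measured genes and the coloured points the 79 subunit genes by complex. The subunit genes follow the slope of the line for GSK484 against CON and for CON against NT, and less evenly for GSK484 against NT. NDUFB4, COX8A, NDUFA4 and ATP5MC3 are among those below the band for GSK484 against CON.

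NDUFB4 (ENSG00000065518, GRCh38 chromosome 3, 120596309 to 120602500, + strand), an accessory subunit in the membrane arm of complex I, had the lowest fold of all, with 114 CPM in GSK484, against 154 in CON and 131 in NT. It was 1.35-fold lower in GSK484 than in CON (log2 fold -0.44, counting interval -0.47 to -0.40), and -0.37 remained with the length and GC trend removed. Its deposited count was not whole, so some of its reads were divided among genes. COX8A (ENSG00000176340, GRCh38 chromosome 11, 63974607 to 63976543, + strand), the widely expressed form of a small complex IV subunit, had 159 CPM in GSK484, against 210 in CON and 176 in NT. Its log2 fold over CON was -0.40 (interval -0.44 to -0.37), and -0.19 with the trend removed, which is under the 1.2-fold size. Its reads, too, were divided, as were those of NDUFA4 and NDUFA5.

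NDUFA4 (ENSG00000189043, GRCh38 chromosome 7, 10931951 to 10940256, - strand) had 138 CPM in GSK484, against 172 in CON and 141 in NT, so that CON stood above the other 2 libraries. Its log2 fold of GSK484 over CON was -0.32 (interval -0.36 to -0.28) in CPM but -0.04 in TPM, where it was at 132, 135 and 107. The length deposited for it differed between libraries. In TPM the median of all measured genes for this comparison was also higher, at 0.0974 against -0.0047 in CPM. NDUFC1, a small membrane subunit of complex I with whole counts, was next at -0.26 (interval -0.32 to -0.21), with 62.3 CPM in GSK484, against 74.7 in CON and 63.9 in NT, and its value was -0.05 with the trend removed. NDUFA4L2, a hypoxia-induced relative of NDUFA4 that the rule leaves out, was at 0.950 CPM in GSK484, against 2.17 in CON and 1.80 in NT.

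At the other end, NDUFA5 (ENSG00000128609, GRCh38 chromosome 7, 123536997 to 123558255, - strand) had 33.9 CPM in GSK484, against 31.5 in CON and 38.1 in NT. Its log2 fold of GSK484 over CON was 0.11 (interval 0.03 to 0.18) as measured and -0.14 with the trend removed, and its GC content was 35.0%, against a median of 47.6% over the 79 genes. NDUFV3, a small flavoprotein-associated subunit, had 46.4 CPM in GSK484, against 45.2 in CON and 45.1 in NT. NDUFA10, an accessory subunit related to nucleoside kinases, had 102 CPM in GSK484, against 102 in CON and 94.7 in NT. Both were within counting error of CON.

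Within complex I, 33 of 36 genes were lower in GSK484 than in CON beyond counting error, where 27.2% of all genes were. The 7 measured core genes, which carry the flavin, the iron-sulfur clusters or the ubiquinone site, had a median log2 fold of -0.09, and the 29 accessory genes -0.16. NDUFV1, the NADH-oxidising core subunit, had 193 CPM in GSK484, against 199 in CON and 166 in NT, a log2 fold over CON of -0.04 (interval -0.07 to -0.01). NDUFS1, the largest core subunit of the peripheral arm, had 64.1 CPM in GSK484, against 68.0 in CON and 71.3 in NT, and was lowest in GSK484. NDUFS3, a core subunit of the peripheral arm, had 101 CPM in GSK484, against 108 in CON and 94.6 in NT, a log2 fold over CON of -0.09. NDUFS7 (-0.12), NDUFS8 (-0.16) and NDUFV2 (-0.08), core subunits that hold iron-sulfur clusters, were lower than in CON, and all 3 were higher in GSK484 than in NT (0.15, 0.12 and 0.14). The core genes were also longer, at a median of 743 bases against 528 bases for the accessory genes. With the length and GC trend removed, the medians against CON were -0.018 for the core genes and -0.015 for the accessory genes.

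Complex II couples succinate oxidation in the TCA cycle to ubiquinone. In it, 3 of 4 genes were lower than in CON beyond counting error, where 27.2% of all genes were. SDHB, the iron-sulfur subunit, had 132 CPM in GSK484, against 151 in CON and 140 in NT, a log2 fold over CON of -0.19 (interval -0.23 to -0.15). SDHC, a membrane anchor, had 106 CPM in GSK484, against 115 in CON and 108 in NT, or -0.12. SDHA, the flavoprotein, had 132 CPM in GSK484, against 138 in CON and 132 in NT, or -0.06. SDHD, the other anchor, had 60.2 CPM in GSK484, against 62.1 in CON and 68.0 in NT, and its -0.05 against CON was within counting error (interval -0.10 to 0.01). SDHA, SDHC and SDHD had divided reads.

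In complex III, 9 of 10 genes were lower than in CON beyond counting error, where 27.2% of all genes were. The median log2 fold was -0.15, and 0.0048 with the length and GC trend removed. UQCRFS1, the Rieske iron-sulfur protein, had 148 CPM in GSK484, against 173 in CON and 149 in NT, a log2 fold over CON of -0.22. CYC1, which carries the cytochrome c1 heme, had 192 CPM in GSK484, against 211 in CON and 188 in NT, or -0.14. UQCRQ had 239 CPM in GSK484, against 275 in CON and 222 in NT, or -0.20 (interval -0.23 to -0.17), and 0.02 with the trend removed. UQCRC1, a core protein, had 292 CPM in GSK484, against 291 in CON and 280 in NT, within counting error of CON.

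All 12 measured genes of complex IV were lower than in CON beyond counting error, where 27.2% of all genes were. The median log2 fold was -0.20, and -0.04 with the length and GC trend removed. COX7A2 had 134 CPM in GSK484, against 159 in CON and 127 in NT, a log2 fold over CON of -0.24. COX7C had 239 CPM in GSK484, against 281 in CON and 229 in NT, or -0.23, and -0.24 with the trend removed. COX7B behaved alike, at 119 CPM in GSK484, against 139 in CON and 117 in NT, or -0.22 before and -0.22 after the trend was removed. COX6A1 (201 CPM in GSK484, against 229 in CON and 190 in NT) and COX6B1 (270 in GSK484, against 310 in CON and 258 in NT) had log2 folds of -0.18 and -0.20 as measured, and 0.02 and -0.02 without the trend.

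COX4I1 had 378 CPM in GSK484, against 398 in CON and 353 in NT, a log2 fold over CON of -0.07, and 0.11 with the trend removed. COX7A2L, a COX7A relative that joins complexes III and IV in supercomplexes, had 106 CPM in GSK484, against 112 in CON and 111 in NT, or -0.07 against CON. Within complex IV the 4 lowest genes in GSK484 were thus COX8A, NDUFA4, COX7A2 and COX7C, all small subunits, and the catalytic core of this complex is encoded in mitochondrial DNA.

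In complex V, 16 of 17 genes were lower than in CON beyond counting error, where 27.2% of all genes were. The median log2 fold was -0.15, and 0.02 with the length and GC trend removed. The F1 head and central stalk had a median of -0.09 over 5 genes, with ATP5F1B at -0.03 and ATP5F1D, the delta subunit, at -0.09 (189 CPM in GSK484, against 201 in CON and 158 in NT). The membrane part had a median of -0.13 over 5 genes. In it, ATP5ME had 117 CPM in GSK484, against 139 in CON and 107 in NT, a log2 fold over CON of -0.25 (interval -0.29 to -0.21) that was 0.04 with the trend removed. ATP5MF had 214 CPM in GSK484, against 225 in CON and 187 in NT, or -0.07 as measured and 0.21 with the trend removed. Of the peripheral stalk, which holds the head still, ATP5PF (-0.22), ATP5PD (-0.16) and ATP5PO (-0.06) were lower than in CON. ATP5PB, the b subunit, had 235 CPM in GSK484, against 239 in CON and 244 in NT, within counting error of CON.

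The c ring of ATP synthase, the rotor that carries protons, is made from 3 genes, ATP5MC1, ATP5MC2 and ATP5MC3, whose proteins differ in the targeting peptide that is cut off on import. Their coding sequences for the mature subunit are shown because the 3 genes differed in value while their product is the same: all 75 of 75 residues were identical, against 175 of 228 bases (76.8%). The first 90 of these bases are given below from GENCODE release 29, 5′ to 3′ on the coding strand, with capitals at the 19 positions that are not the same in all 3 genes.
ATP5MC1: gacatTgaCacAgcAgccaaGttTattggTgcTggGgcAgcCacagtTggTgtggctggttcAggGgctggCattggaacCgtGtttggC
ATP5MC2: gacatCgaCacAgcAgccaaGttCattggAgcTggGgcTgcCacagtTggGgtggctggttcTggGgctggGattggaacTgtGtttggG
ATP5MC3: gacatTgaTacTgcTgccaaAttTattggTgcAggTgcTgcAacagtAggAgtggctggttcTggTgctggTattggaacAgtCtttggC
All 3 genes had whole counts in each library, so none of their reads had been divided with another gene.

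ATP5MC3 (GRCh38 chromosome 2, 175176258 to 175184607, - strand) had 256 CPM in GSK484, against 323 in CON and 283 in NT. It was 1.26-fold lower in GSK484 than in CON (log2 fold -0.33, interval -0.36 to -0.31), -0.33 with the trend removed, and -0.14 against NT (interval -0.17 to -0.11). ATP5MC1 (chromosome 17, 48892765 to 48895871, + strand) had 216 CPM in GSK484, against 242 in CON and 201 in NT, a log2 fold over CON of -0.16 (interval -0.19 to -0.13) and 0.05 with the trend removed. ATP5MC2 (chromosome 12, 53632726 to 53677408, - strand) had 175 CPM in GSK484, against 197 in CON and 175 in NT, or -0.17 (interval -0.20 to -0.14) and -0.02 with the trend removed. The interval of ATP5MC3 against CON did not overlap those of ATP5MC1 and ATP5MC2, which covers counting error only. Per length, ATP5MC1 had the highest level, 696 TPM in GSK484, against 751 in CON and 668 in NT, ahead of ATP5MC3 with 424, 495 and 482 TPM and ATP5MC2 with 330, 343 and 330 TPM.

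**Figure D3:**
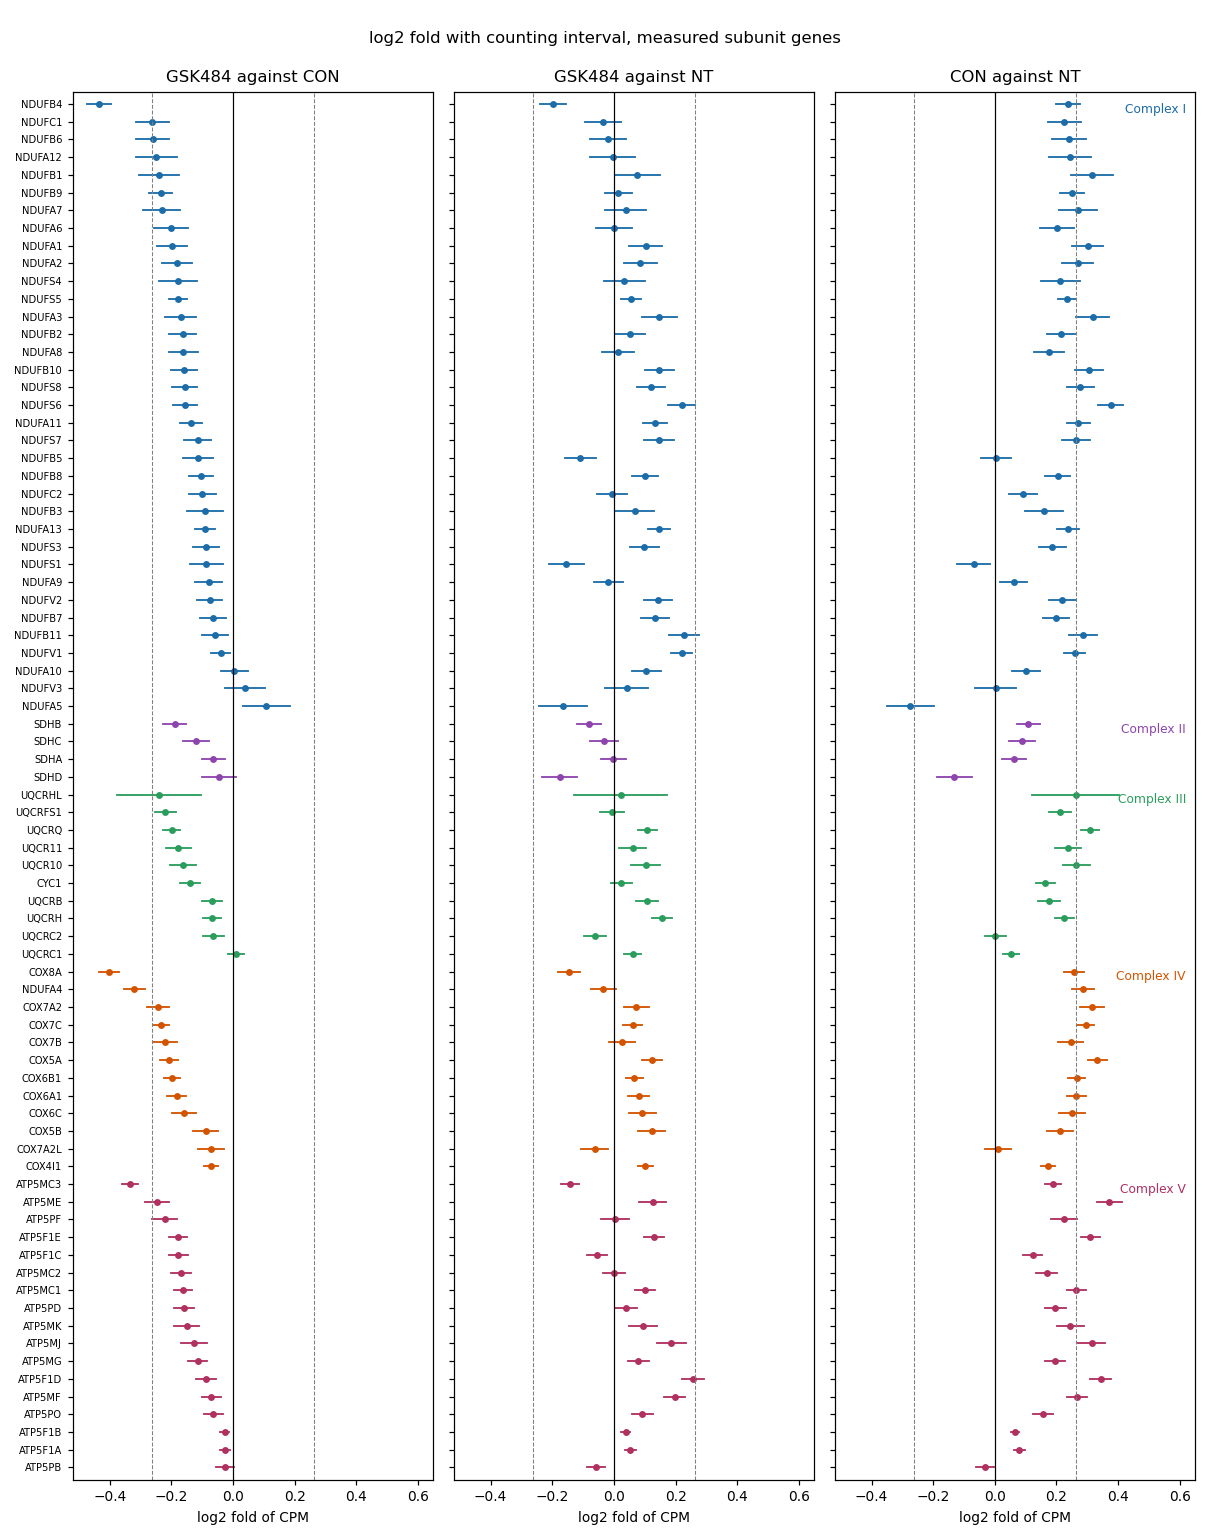
log2 fold of CPM with its 95% counting interval for measured subunit genes, 1 per row, ordered by complex and by GSK484 against CON, for all 3 comparisons, with dashed lines at 1.2-fold. Nearly all points lie left of 0 for GSK484 against CON and right of 0 for CON against NT, and they fall on both sides for GSK484 against NT.

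GSK484 against NT sets treated against untreated cells. The subunit genes were mostly a little higher in GSK484: 46 of 79 were higher beyond counting error, where 27.2% of all genes were, 12 were lower, where 29.3% of all were, and 21 were within counting error. The median log2 fold was 0.06, beside -0.0028 over all measured genes, and no subunit gene differed by 1.2-fold in either direction, while 7.07% of all genes were higher and 10.5% lower by that rule and 0.578% differed 2-fold. By complex, the median was 0.06 in complex I, -0.06 in complex II, 0.06 in complex III, 0.07 in complex IV and 0.08 in complex V. The median was 0.07 for the 31 genes under 500 bases, 0.09 for the 32 from 500 to 1000 bases and -0.004 for the 16 longer ones. Spearman's rho over the 79 genes was -0.33 with log2 length and 0.48 with GC content. With the length and GC trend removed the median over the 79 genes was 0.00027.

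The highest gene against NT was ATP5F1D, at 189 CPM in GSK484 against 158 in NT (log2 fold 0.26, interval 0.22 to 0.29), with a GC content of 69.6% and a value of -0.01 once the trend was removed. NDUFB11, a membrane arm subunit encoded on the X chromosome, had 105 CPM in GSK484 and 89.6 in NT (0.23, interval 0.18 to 0.27), and NDUFV1 had 0.22 (interval 0.18 to 0.25). With the trend removed these were 0.09 and 0.10. The lowest were NDUFB4 at -0.20 (interval -0.24 to -0.16), SDHD at -0.18 (interval -0.23 to -0.12) and NDUFA5 at -0.17 (interval -0.24 to -0.09). In complex II, SDHB was also lower beyond counting error (-0.08), while SDHA and SDHC were within it, so no gene of this complex was higher than in NT.

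Against CON and NT together, 9 genes were lower in GSK484 than in both beyond counting error: NDUFB4, NDUFB5, NDUFS1, SDHB, UQCRC2, COX7A2L, COX8A, ATP5F1C and ATP5MC3. They were 11.4% of the 79, against 8.81% of all measured genes. None was higher than in both, where 8.43% of all genes were. NDUFB5, a membrane arm subunit of complex I with divided reads, had 81.3 CPM in GSK484, against 88.0 in CON and 87.7 in NT. UQCRC2, a core protein of complex III, had 168 CPM in GSK484, against 175 in CON and 175 in NT. ATP5F1C, the gamma subunit that forms the central stalk, had 197 CPM in GSK484, against 223 in CON and 205 in NT. These 3 genes were thus lowest in GSK484 by small amounts, with log2 folds against NT of -0.11, -0.06 and -0.06. The more common pattern, in 44 genes (55.7%, against 6.23% of all genes), was a value in GSK484 below CON and above NT. These 2 comparisons share the GSK484 library, so their values are given side by side only. For COX8A the log2 fold against NT was -0.15 (interval -0.18 to -0.11) and became -0.28 with the trend removed, for NDUFB4 it was -0.20 and -0.16, and for ATP5MC3 it was -0.14 and -0.09.

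**Figure D4:**
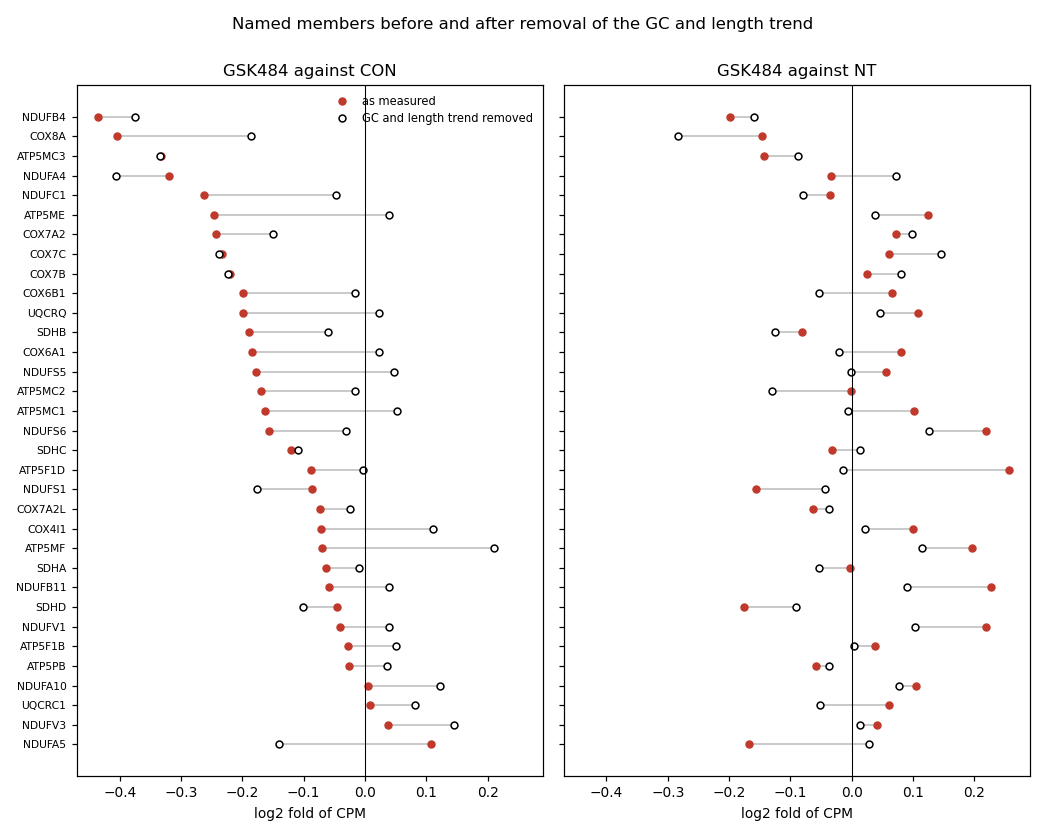
log2 fold of CPM for the named measured genes as measured (red) and with the GC and length trend removed (open), for GSK484 against CON and against NT. NDUFB4, ATP5MC3 and NDUFA4 keep values below -0.3 against CON after removal, COX8A moves to -0.19, and most others move towards 0 or across it in that comparison.

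In TMM-scaled CPM the subunit genes were mostly higher in CON than in NT: 71 of 79 were higher beyond counting error, where 35.3% of all genes were, and 4 were lower (NDUFA5, NDUFS1, SDHD and ATP5PB), where 29.2% of all were. At 1.2-fold, 25 genes were higher, or 31.6%, against 10.2% of all genes, and NDUFA5 alone was lower, where 17.1% of all genes were. None differed 2-fold, where 1.68% of all genes did. The count of 25 depends on the scaling: it was 15 with DESeq2 size factors (8.71% of all genes), 11 with library totals (7.23%), 1 in deposited TPM (5.20%) and 1 with the length trend removed (11.5%). In TPM, GSK484 against CON had 2 subunit genes past 1.2-fold and CON against NT had 1. The count of 71 beyond counting error was 69 with DESeq2 size factors (31.5% of all genes) and 67 with library totals (27.3%). In deposited TPM it was 58 (17.4%), with 10 lower (46.6%). The median log2 fold was 0.23 (1.17-fold higher), beside 0.03 over all measured genes, and the complex medians were 0.23 in complex I, 0.08 in complex II, 0.22 in complex III, 0.26 in complex IV and 0.20 in complex V.

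The highest genes in CON against NT were NDUFS6, a zinc-binding accessory subunit of complex I, at 135 CPM in CON and 104 in NT (log2 fold 0.38, interval 0.33 to 0.42), ATP5ME (0.37, interval 0.33 to 0.41) and ATP5F1D (0.34, interval 0.31 to 0.38). NDUFA5 had the lowest value, -0.27 (interval -0.35 to -0.20), which turned to 0.17 with the trend removed. SDHD followed with -0.13 (interval -0.19 to -0.08) and NDUFS1 with -0.07 (interval -0.12 to -0.01). NDUFA4 was the only gene past 1.2-fold in opposite directions in 2 comparisons, higher in CON than in NT (0.29) and lower in GSK484 than in CON (-0.32), and both rest on its CON library.

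Here, too, the shift followed length. The median log2 fold of CON over NT was 0.26 for the 31 subunit genes under 500 bases, 0.21 for the 32 from 500 to 1000 bases and 0.06 for the 16 longer ones, with a Spearman's rho of -0.56 with log2 length and 0.30 with GC content. With both trends removed the median was -0.0021, 27 genes were higher and 28 lower beyond counting error, where 26.8% and 25.6% of all genes were, and 7 were higher by 1.2-fold, where 7.81% of all were. CON had the highest CPM of the 3 libraries for 72 of the 79 genes, where 39.2% of all genes had it, and the highest TPM for 49, where 17.2% of all had it. CON was also the library with the most counts and a TMM scaling factor of 0.98, against 1.01 in GSK484 and 1.01 in NT. The part of depth, RNA quality and library preparation in these shifts was not tested.

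The promoters of the subunit genes were read for 3 motifs that the known regulators bind. Promoter sequences from RefSeq (GRCh38.p14, 250 bases before to 50 after the first listed start, both strands) were matched for 68 of the 86 genes. The NRF1 motif GCGCANGCG was in 22 of 68 (32.4%), against 8.05% of all 27305 promoters and 11.2% of those of protein-coding genes. The ETS motif CCGGAAGT, bound by GABP, was in 10 (14.7%), against 4.44% and 6.36%, and the YY1 motif AAGATGGCG in 8 (11.8%), against 1.85% and 2.83%. Any of the 3 was present in 34 of 68 (50%), against 13.1% of all promoters.

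Of the 5 lowest and 5 highest genes for GSK484 against CON, 8 had a promoter in the table (not ATP5MC3 and NDUFA4), and the NRF1 motif lay in the promoters of NDUFB4, the lowest gene, and UQCRC1, which was within counting error of CON. They are shown because the same motif, in capitals with 30 bases on either side, stands before genes at both ends of that range, NDUFB4 at chr3:120596243-120596311 on the + strand (bases -93 to -25 from the start) and UQCRC1 at chr3:48609654-48609722 on the - strand (bases -76 to -8, motif on the opposite strand), each 5′ to 3′ in the direction of the gene.
NDUFB4: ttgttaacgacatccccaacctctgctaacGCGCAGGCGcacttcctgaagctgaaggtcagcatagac
UQCRC1: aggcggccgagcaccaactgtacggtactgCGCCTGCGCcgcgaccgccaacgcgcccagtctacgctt
Further matches to the NRF1 motif, not printed, lay at bases -159 to -151 and -158 to -150 in NDUFB4 and at -12 to -4 in UQCRC1. The median log2 fold of GSK484 over CON was -0.16 for the 21 measured genes with the NRF1 motif and -0.16 for the 43 without it. It was -0.12 with the ETS motif (10 genes) and -0.16 without it (54 genes), and -0.18 with the YY1 motif (8 genes) and -0.16 without it (56 genes). For GSK484 against NT the medians with and without the motif were 0.06 and 0.08 for NRF1, 0.08 and 0.07 for ETS and 0.02 and 0.08 for YY1. For CON against NT they were 0.24 and 0.23 for NRF1, 0.23 and 0.23 for ETS and 0.21 and 0.24 for YY1.

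The 13 subunits encoded in mitochondrial DNA, partners of the nuclear genes in complexes I, III, IV and V, showed a larger difference of the same direction. They took 3.93% of counts in GSK484, against 5.22% in CON and 4.68% in NT. In GSK484 against CON, 12 of 13 were lower by 1.2-fold beyond counting error, where 6.27% of all genes were. The list's median was -0.54 (log2), and -0.36 with the length and GC trend removed. MT-ND4L, a small membrane subunit of complex I, was lowest at 150.3 CPM in GSK484, against 256 in CON and 277 in NT (-0.77 against CON), and MT-CO3, a core subunit of complex IV, was nearest to level at 5957 CPM in GSK484, against 6828 in CON and 5859 in NT (-0.20). Against NT, 7 of 13 were lower by 1.2-fold, where 10.5% of all genes were, with a median of -0.29. Beyond counting error, 10 were lower and 2 higher, where 29.3% and 27.2% of all genes were, with MT-ND6 highest at 0.14. The RNA of these subunits was therefore lowest in GSK484 in share of counts, whereas the nuclear subunit genes summed together were lowest in NT. Complex II alone differed from that sum, at 0.0434% in GSK484, against 0.0457% in CON and 0.0453% in NT. Fewer mitochondria per cell and less RNA per mitochondrion cannot be told apart in bulk RNA.

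The assembly factors, which build the complexes and are not part of them, were counted for GSK484 against CON in the same way. Beyond counting error, 9 of 16 complex I factors were lower, 2 of 4 for complex II, 2 of 6 for complex III, 13 of 24 for complex IV and 4 of 5 for complex V, where 27.2% of all genes were. By 1.2-fold, where the background was 6.27%, 1 of 16 complex I factors was lower (NDUFAF8, 51.5 CPM in GSK484, against 63.6 in CON and 50.6 in NT), 0 of 4 for complex II, 0 of 6 for complex III, 2 of 24 for complex IV and 1 of 5 for complex V (FMC1, 4.89 CPM in GSK484, against 6.33 in CON and 5.56 in NT). By the same size, 1 factor, for complex IV, was higher, where 11.3% of all genes were. The list medians were -0.08, -0.08, -0.03, -0.09 and -0.14, and -0.05, 0.03, 0.01, -0.04 and -0.08 with the length and GC trend removed. For complex IV the lower ones were CMC1, an early assembly factor (-0.32), and COX18, needed to insert MT-CO2 into the membrane (-0.29). The higher one was LRPPRC, a long gene whose protein stabilises mitochondrial messenger RNAs, at 236 CPM in GSK484, against 190 in CON and 258 in NT (log2 fold over CON 0.32, interval 0.29 to 0.35).

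SDHAF3 (-0.14) and SDHAF4 (0.07) marked the range of the complex II factors, UQCC1 (-0.08) and LYRM7 (0.25, but -0.60 in TPM) that of complex III, NDUFAF1 (0.04) the upper end of complex I and TMEM242 (-0.02) that of complex V. Of the electron carrier and companion genes, 6 of 7 were measured, with a median of -0.16, and -0.02 with the length and GC trend removed. CYCS, cytochrome c itself, was at 259 CPM in GSK484, against 238 in CON and 269 in NT (0.12 against CON), opposite in sign to most subunit genes. Among these, NDUFA4L2 was the 1 gene lower by 1.2-fold (-1.19, interval -1.60 to -0.80), where 6.27% of all genes were.

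The regulators of mitochondrial biogenesis had a median log2 fold of 0.07 over 10 measured genes of 11, and 0.04 with the length and GC trend removed. By 1.2-fold, none was lower and 1 was higher, where 6.27% and 11.3% of all genes were. GABPA, the DNA-binding subunit of GABP, was at 12.9 CPM in GSK484, against 9.09 in CON and 15.2 in NT (0.50 against CON, interval 0.37 to 0.64, and 0.19 with the trend removed). PPARA was lowest of the list at 3.30 CPM in GSK484, against 3.67 in CON and 3.80 in NT, within counting error of CON. The TCA cycle genes had a median of -0.02 over 16, with 0 lower and 2 higher by 1.2-fold, beside the same 6.27% and 11.3%. Their median was 0.02 with the trend removed. SUCLA2, a subunit of succinyl-CoA ligase, was at 29.1 CPM in GSK484, against 21.0 in CON and 34.7 in NT (0.47 against CON), and CS, citrate synthase, was lowest at 191 CPM in GSK484, against 220 in CON and 211 in NT (-0.21). GABPA (-0.74), SUCLA2 (-0.72) and LRPPRC (-0.44) were lower in CON than in NT, opposite in sign to most subunit genes, and their values were -0.18, -0.57 and -0.15 with the trend removed.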

How the data were processed

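Total RNA of 3 libraries was sequenced with a stranded total RNA kit as paired reads of 125 bases, per the labels' protocols. Per the submitters' processing notes, RSEM and hg19 were used. Not given in the sources used here were the aligner, annotation, versions and strand setting, so genes overlapping an antisense gene are uncertain. The deposited expected counts are RSEM estimates per gene that divide reads shared between genes, and the deposited TPM and FPKM are per length, per the file headers. FPKM was not used.

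Expected counts were scaled to CPM with edgeR 4.0.16 TMM factors in R 4.3.3 (prior count 0.5). Intervals of a log2 fold are 95% exact conditional binomial (Clopper-Pearson) intervals on rounded counts. Without replicates, intervals, shares and floors cover counting error only, and PCR copies were not separable. A count of 0 allows 3 counts. Calls needed 1 CPM in at least 1 library, 1.2-fold and an interval excluding 0. The trend removed was a natural spline of 5 degrees of freedom on length, on GC content, or on both, with GC known for 97.2% of measured genes. Of the 79 measured genes, 41 had counts whole within 0.005 in every library and 38 had divided reads.

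Names, gene types, GC content, coordinates and coding sequences came from GENCODE release 29 (GRCh38) by gene ID, and promoters from RefSeq, not from the build of the counts. Coding sequences were the longest open reading frames. Of 68 promoters, 62 held the start of an annotated transcript. Some items, and the leukocyte marker list, are not reported here. Protein sequences, planned for the ATP5MC genes, were not used here.

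The genes and lists were chosen with earlier results of these data known. Named genes were the 10 of highest mean TPM, the 5 lowest and 5 highest for GSK484 against CON, the 3 lowest and 3 highest of the other comparisons, genes called in opposite directions, the isoform groups, SDHA to SDHD, and each list's extremes; further complex I core genes, the rest of the peripheral stalk, UQCRFS1, CYC1, COX18 and the genes listed beside counts were named after their values were seen. The scripts were tested on simulated counts. Alternatives were library totals, DESeq2 1.42.0 size factors, TPM (pseudocount 0.1), other CPM minimums and prior, whole counts only, and the trends.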

Additional observations from a re-analysis of the deposited data

How the results depend on the processing

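The counts of subunit genes past 1.2-fold and the median log2 folds moved with scaling and with the length and GC trends, and did not move by over 1.5 times or by more than counting error with the prior count, with no CPM minimum or with a minimum of 10 CPM. With library totals in place of TMM, the median was -0.117 for GSK484 against CON and 0.183 for CON against NT, with 11 genes higher in CON (7.23% of all genes), and DESeq2 size factors left 15 higher (8.71%). Percentages in parentheses are the share of all genes under the same setting. In deposited TPM, 2 genes were lower in GSK484 than in CON (3.88%, median -0.0474), 1 was higher in GSK484 than in NT (8.01%), and CON against NT had 0 lower (24.3%) and 1 higher (5.20%, median 0.0868). TPM moved the median of all genes to 0.0974 for GSK484 against CON and to -0.0829 for CON against NT. Relative to those medians, 1 gene was higher in GSK484 than in NT (8.14%), and 0 were lower (18.0%) and 13 higher (9.13%) in CON than in NT (median 0.170). NDUFA4 turned to 0.29 and 0.30 against NT under these TPM settings, where its deposited length differed between libraries. Among genes with whole counts, 1 was lower in GSK484 than in CON (5.66%), and CON against NT had 0 lower (19.5%) and 12 higher (7.98%), with fewer genes entered.

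With the length trend removed, 2 genes were lower in GSK484 than in CON (6.80%, median -0.0237), 1 was lower in GSK484 than in NT (7.42%, median -0.0023), and 1 was higher in CON than in NT (11.5%, median 0.0239), with ATP5MF at -0.0238 there. With the GC trend removed, 11 were lower in GSK484 than in CON (7.27%), 3 were higher in GSK484 than in NT (6.10%), and 0 were lower in CON than in NT (8.51%, median 0.182), with NDUFA5 at 0.24. With both removed, the median was -0.0162 for GSK484 against CON, 0.00027 for GSK484 against NT and -0.0021 for CON against NT. The 4 genes then lower in GSK484 than in CON (6.22%) shared 3 with those before, with ATP5F1E in place of COX8A. COX8A was the 1 gene lower (5.16%) and ATP5F1E the 1 gene higher (5.55%) in GSK484 than in NT, and CON against NT had 0 lower (7.69%) and 7 higher (7.81%). In CON against NT, ATP5F1D (-0.0115), ATP5MC1 (-0.0577), ATP5ME (-0.0021), ATP5MF (-0.0967), COX6A1 (-0.043), COX6B1 (-0.0362) and NDUFA5 (0.17) reversed. Beyond what each trend takes out by construction, the cause was not tested. Leaving out a replicate was not possible with 1 library per group. No paired analysis was possible because there is 1 library per group.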
